A study of Mus musculus with 12 samples.

Results

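The cytoplasmic ribosomal protein genes were taken as every gene of the count table whose symbol is Rpl or Rps followed by a number, with an optional a, x, y or l suffix and digit, together with Rpsa, Rplp0, Rplp1 and Rplp2. Pseudogene names ending in -ps, and the kinase and binding protein names that begin with Rps6k or Rps19bp, were left out. The rule found 84 of 23412 genes, 51 of the large subunit and 33 of the small subunit. Of these, 77 encode the standard ribosomal proteins and 7 are paralogs of them (Rpl3l, Rpl7l1, Rpl10l, Rpl22l1, Rpl39l, Rps27l and Rps4y2, which RefSeq lists as Rps4l, a transcribed pseudogene).

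The data were bulk RNA-seq of poly-A transcripts from v6.5 mouse embryonic stem cells (mESCs), a male line kept on gelatin, with 3 libraries for each of 4 genotypes. The genotypes were wild type (WT), Hmgn1-/-, Hmgn2-/- and the double knockout Hmgn1-/-Hmgn2-/-. HMGN1 and HMGN2 are small proteins that bind nucleosomes, and the series asks what their loss does to gene expression. The Hmgn1-/- cells had lost 1 bp of Hmgn1 exon 3 on both alleles, and the Hmgn2-/- cells had gained 1 bp in exon 4 of Hmgn2, also on both alleles. The double knockout carried both changes, the Hmgn1 edit having been added to Hmgn2-/- cells. Each knockout was grown from single edited cells, so that the genotype and the history of its line cannot be told apart, and RNA was taken at 48 h.

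Each cytoplasmic ribosome is built from a large and a small subunit, and nearly every protein in it is encoded by a single active gene. Their mRNAs begin with a run of C and T bases, the 5' terminal oligopyrimidine (TOP) tract, through which mTOR signalling sets their translation, and their levels are usually held close to one another. A few genes have paralogs, often intronless or expressed mainly in testis or muscle, whose products can take the place of the standard protein in the ribosome.

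The targeted genes were read first, as a check of the labels. In CPM, a gene's counts over the library total scaled by TMM (edgeR's normalisation for composition), Hmgn1 stood at 662, 599.8 and 614 in the WT libraries, at 138, 139 and 141 in Hmgn1-/-, at 545, 556 and 639.7 in Hmgn2-/- and at 21.5, 19.9 and 21.4 in the double knockout. Hmgn2 stood at 137, 122 and 119.6 in WT, at 105, 113 and 109 in Hmgn1-/-, at 50.7, 54.5 and 53.7 in Hmgn2-/- and at 53.8, 50.5 and 54.2 in the double knockout. Each gene was lowest in the libraries labelled as its knockouts, with no overlap with WT. By edgeR's quasi-likelihood test under Benjamini-Hochberg adjustment, the log2 fold change of Hmgn1 was -2.16 in Hmgn1-/- (adjusted p = 3.36e-11, lower in 3 of 3 libraries) and -4.89 in the double knockout (adjusted p = 8.56e-15, 3 of 3). That of Hmgn2 was -1.24 in Hmgn2-/- (adjusted p = 5.73e-06 in edgeR, 3 of 3) and -1.25 in the double knockout (adjusted p = 1.95e-08 in edgeR, 3 of 3). The mRNA that remains from a gene with a 1 bp change says nothing of its protein.

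The libraries held between 17337908 and 31448468 counts on genes. The WT libraries held 31448468, 17614490 and 28524108 counts, and the Hmgn1-/- libraries 25953244, 21059862 and 21993042. The Hmgn2-/- libraries held 25908890, 26486535 and 17337908 counts, and the double knockout libraries 31005479, 22151507 and 26410485. At this depth 83 or 84 of the 84 ribosomal protein genes had at least 1 count in each library, and 83 entered every test. Rpl26 alone was left out by the filter on low counts, with a single count in WT replicate 2 and in Hmgn1-/- replicate 3 and 0 in the other libraries, where a count of 0 allows up to 3.

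Ribosomal protein mRNAs took up nearly the same part of the mRNA pool in every genotype. In WT they held 9.04%, 8.46% and 8.69% of all counts, in Hmgn1-/- 8.05%, 8.46% and 8.95%, in Hmgn2-/- 7.70%, 8.33% and 10.2%, and in the double knockout 7.76%, 8.32% and 8.82%. The group means were 8.73% ± 0.291 in WT, 8.49% ± 0.450 in Hmgn1-/-, 8.75% ± 1.31 in Hmgn2-/- and 8.30% ± 0.532 in the double knockout (SD, n = 3 each). The ranges of all 4 genotypes overlapped, and the means differed by less than the spread within Hmgn2-/- or the double knockout. Counting error was far smaller than these gaps, with a 95% Wilson interval of 7.69% to 7.71% for Hmgn2-/- replicate 1, and covers counting only. The large subunit genes held 5.17% ± 0.176, 5.09% ± 0.274, 5.25% ± 0.790 and 4.97% ± 0.324 of the counts in the same order of genotypes, and the small subunit genes 3.56% ± 0.114, 3.40% ± 0.176, 3.50% ± 0.523 and 3.33% ± 0.208. In bulk samples, fewer cells of a type and less RNA per cell cannot be told apart, and a share says nothing of the RNA content of a cell.

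The spread within a genotype ran through the family as a whole. Over 74 standard genes, Hmgn2-/- replicate 3 was the highest of its 3 libraries for 74 and Hmgn2-/- replicate 1 the lowest for 73. In the double knockout, replicate 3 was the highest for 71 and replicate 1 the lowest for 73, and in Hmgn1-/- replicate 3 was the highest for 71 and replicate 1 the lowest for 64. In WT, replicate 1 was the highest for 56 and replicate 2 the lowest for 57. The median log2 deviation of the standard genes from their group mean was 0.06, -0.04 and -0.01 in the WT libraries, -0.09, 0.00 and 0.09 in Hmgn1-/-, -0.20, -0.08 and 0.28 in Hmgn2-/- and -0.11, 0.01 and 0.10 in the double knockout. Hmgn2-/- replicate 3 thus stood apart from the other libraries.

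Other short transcripts moved in the same libraries. The 998 other genes with a transcript under 1 kb deviated by -0.14, -0.05 and 0.20 in the Hmgn2-/- libraries, and the 3519 genes with a transcript over 4 kb by 0.12, 0.04 and -0.16. Short genes were high and long genes low in Hmgn2-/- replicate 3, with the reverse in replicate 1. What part the length of transcripts, or the quality of the RNA, has in the spread of the ribosomal protein genes was not tested.

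**Figure D1:**
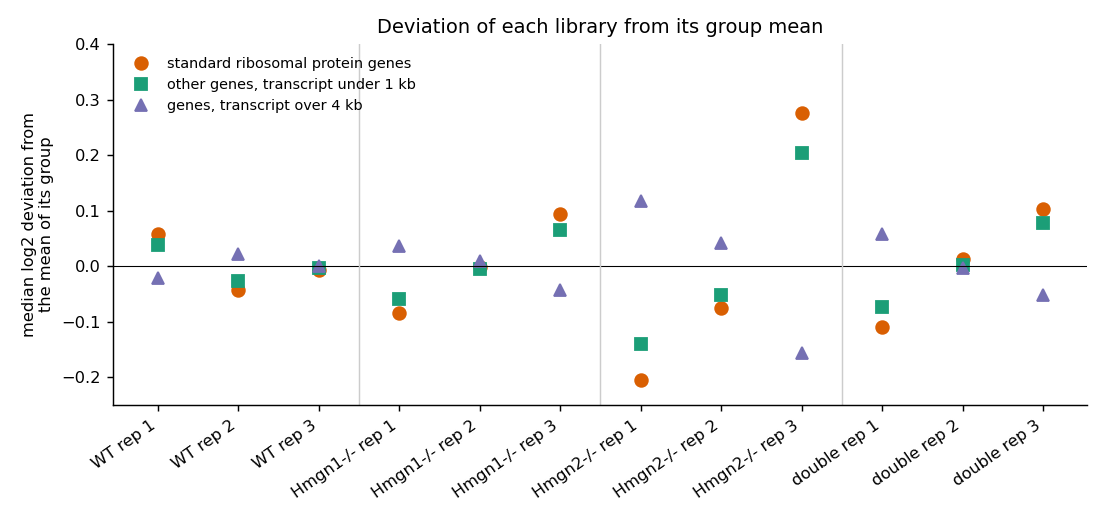
Median log2 deviation (vertical axis) of the standard ribosomal protein genes (circles), of 998 other genes with a transcript under 1 kb (squares) and of 3519 genes with a transcript over 4 kb (triangles) in each of the 12 libraries (horizontal axis) from the mean of its genotype. The widest spread is within Hmgn2-/-, where the circles run from -0.20 to 0.28.

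Among themselves the genes were far from equal in level. Per kilobase of annotated transcript, the highest in WT was Rplp1, an acidic stalk protein of the large subunit, at 4288 CPM per kb ± 107.0 (SD, n = 3). It was followed by Rpl13, a large subunit protein, at 3470.0 ± 36.9 and by Rps12, a small subunit protein, at 3212 ± 60.2. Over all 12 libraries together the largest shares of counts went to Rpl4, Rps2 and Rpl13, and in WT alone Rplp0 and Rpsa stood above Rpl13. The paralogs stood lower, with Rps4y2, the copy of Rps4x, at rank 68 from the top, Rpl22l1 at rank 77 with 251.8 ± 13.7, Rpl10l at 40.1 ± 1.99 and Rpl39l at 19.8 ± 1.33. Rpl3l, the muscle paralog of Rpl3, was near the bottom at 1.74 ± 0.349 per kb.

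Of the standard genes, 4 were nearly empty in the count table although each encodes a core ribosomal protein. Per kb, WT held 0.0358 ± 0.0621 for Rpl26, 1.05 ± 0.366 for Rpl30, 1.95 ± 0.618 for Rps27 and 5.01 ± 0.165 for Rpl34. Parts of their sequence also occur in other annotated genes or pseudogenes. Of all stretches of 100 bases in the transcript, the share also found in another annotated gene was 36.8% for Rpl26, 53.5% for Rpl30, 98.4% for Rps27 and 30.97% for Rpl34. Sharing was common across the whole family, with a median of 41.4%, above the shares of Rpl26 and Rpl34, and 9 genes at 0, and 22 of the 84 overlapped an exon of another gene. How reads that fit several genes were counted is not given in the sources used here, so levels and fold changes of genes with much shared sequence are uncertain, and the cause of the near-empty values was not tested.

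**Figure D2:**
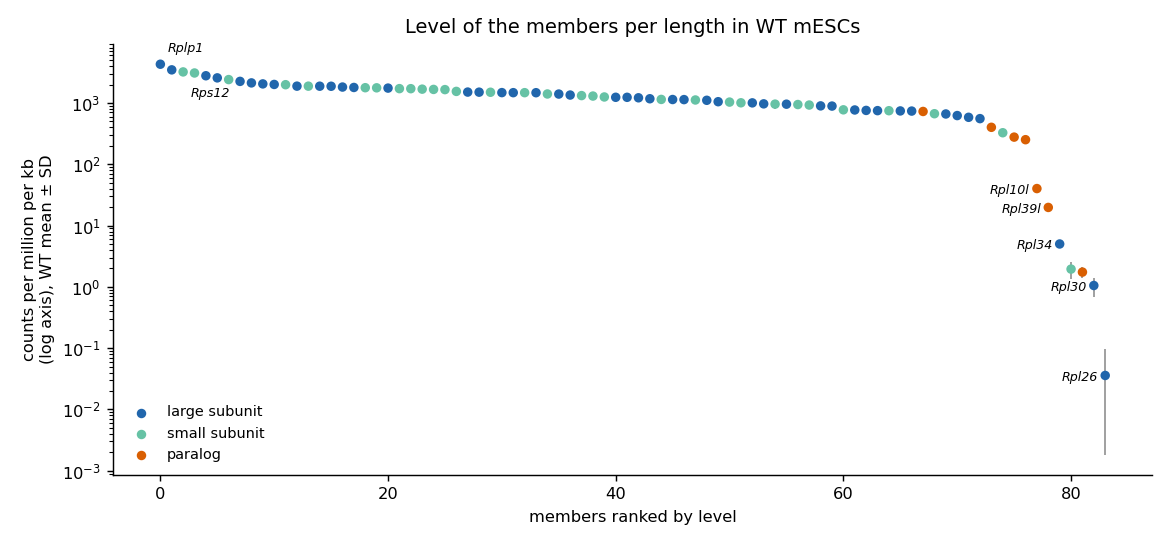
Level of each of the 84 genes in WT in CPM per kb on a log axis, ranked from the highest to the lowest (mean ± SD, n = 3), with the large subunit, the small subunit and the paralogs in different colours. The values run from 4288 for Rplp1 to 0.0358 for Rpl26, whose lower error bar would pass below 0 and is shortened.

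The start sites of the genes are where the TOP tract is read, so the sequence around a few of them is shown, for genes whose values in every library are given below and for 2 standard TOP genes. RefSeq (GRCm38.p6) holds a promoter of 300 bases for 63 of the 84 genes. Each window of 30 bases has 15 on either side of the start in that promoter table, reads 5' to 3' on the strand of the gene, and has its longest run of C and T bases in capitals. That start can lie inside the annotated span of the gene, as it does for Rpl39l and Rpl22. Rpl13a and Rps6 are the standard TOP genes, and Rpl39, Rpl22 and Rpl10 beside their paralogs. The windows are chr8:123102335-123102364 on the plus strand for Rpl13, chr7:45128731-45128760 on the minus strand for Rpl13a and chr4:86857353-86857382 on the minus strand for Rps6. Those of the pairs are chrX:37085208-37085237 (minus) for Rpl39 and chr16:10170213-10170242 (plus) for Rpl39l, chr4:152325711-152325740 (plus) for Rpl22 and chr3:28805493-28805522 (plus) for Rpl22l1, and chrX:74270801-74270830 (plus) for Rpl10 and chr12:66284387-66284416 (minus) for Rpl10l.
Rpl13: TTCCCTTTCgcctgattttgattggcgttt
Rpl13a: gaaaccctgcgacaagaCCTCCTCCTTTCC
Rps6: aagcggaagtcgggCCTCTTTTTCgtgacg
Rpl39: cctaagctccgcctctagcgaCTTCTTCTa
Rpl39l: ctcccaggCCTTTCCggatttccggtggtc
Rpl22: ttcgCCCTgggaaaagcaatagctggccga
Rpl22l1: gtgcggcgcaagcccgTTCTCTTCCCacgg
Rpl10: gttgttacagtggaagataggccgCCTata
Rpl10l: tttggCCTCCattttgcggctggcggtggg

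The windows differ in their runs of C and T. The longest was 13 bases in Rpl13a, 10 in Rps6 and Rpl22l1, 9 in Rpl13, 8 in Rpl39, 7 in Rpl39l, 5 in Rpl10l, 4 in Rpl22 and 3 in Rpl10. Over the 63 genes, 39.7% had a run of at least 8 bases in the window, against 11.9% of 27025 promoters of all genes, and 27.0% had a run of at least 10, against 5.19%. The letters CTTTCC, themselves a run of C and T and part of many TOP starts, were in the window, on the strand of the gene, of 14.3% of the family and of 1.39% of all promoters. Over the whole promoter of 300 bases and both strands, CCGGAA, the core bound by ETS factors such as GABPA, was found in 50.8% of the family and 15.2% of all promoters, and TATAAA in 9.52% and 14.2%. A match is a description of the letters, not a binding site, and the start in the table may not be the base where transcription starts in mESCs.

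In cells without HMGN1, nearly every standard ribosomal protein gene stood close to its WT level. Of 83 genes tested, 1 rose (Rpl13) and 2 fell (Rpl39l and Rpl22l1), and only Rpl39l also passed the study's limit of a log2 fold change of at least 1 in size. These calls used edgeR's quasi-likelihood test under Benjamini-Hochberg adjustment over all genes and an adjusted p under 0.01. Among all 13917 genes tested, 7.28% were called higher, 10.1% lower and 5.98% past the study's limits. The median log2 fold change of the 83 genes was -0.03, beside 0.00 over all genes, and 25 of the 83 lay above 0. DESeq2 called 4 of the 83, and 9 had an unadjusted p under 0.05 in edgeR, 2 of them higher and 7 lower. Of all genes tested, DESeq2 called 18.7%, and 38.7% had such an unadjusted p, so the family lay below the background by each count.

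The changes of the 76 standard genes tested in Hmgn1-/- spanned a narrow band, from -0.18 for Rpl39 to 0.34 for Rpl30, which has few counts and a 95% interval of -0.50 to 1.18. For 73 of the 76 the 95% interval lay wholly within 0.5 of 0 on the log2 scale. Over all genes tested the same held for 57.0%, and the ribosomal protein genes have higher counts than most. The median of the standard genes was -0.03 and was negative under TMM, RLE and upper-quartile scaling and with library totals alone (-0.03, -0.03, -0.04 and -0.05), while it was 0.01 without Hmgn1-/- replicate 1. By subunit the medians were -0.02 for the large and -0.04 for the small subunit genes.

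Rpl39l was the gene of the family with the largest change in each knockout. Its standard partner Rpl39 encodes a small protein that lines the exit tunnel of the ribosome, and Rpl39l, on chromosome 16 (10170197 to 10174911), is best known from male germ cells. In CPM Rpl39l stood at 11.6, 10.8 and 10.2 in WT, at 3.45, 5.63 and 4.45 in Hmgn1-/-, at 2.99, 3.07 and 4.28 in Hmgn2-/- and at 2.78, 3.43 and 3.38 in the double knockout. Every knockout library lay below every WT library, and the Hmgn2-/- libraries overlapped with those of both other knockouts, while every Hmgn1-/- library was above every double knockout library. The raw counts behind these values were 372, 191 and 293 in WT and between 72 and 118 in the knockouts. No stretch of 100 bases of its transcript is shared with another annotated gene.

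In Hmgn1-/- Rpl39l fell by 1.28 on the log2 scale (SE 0.164, 95% interval -1.63 to -0.92), which is 2.42-fold lower and seen in 3 of 3 libraries (edgeR's quasi-likelihood test under Benjamini-Hochberg adjustment, adjusted p = 6.22e-05). In Hmgn2-/- it fell by 1.67 (SE 0.168, -2.04 to -1.30), 3.18-fold lower in 3 of 3 libraries (edgeR adjusted p = 7.05e-05). In the double knockout it fell by 1.77 (SE 0.141, -2.07 to -1.47), 3.41-fold lower in 3 of 3 libraries (edgeR adjusted p = 8.28e-07). It was past the study's limits in all of these comparisons, which share the WT libraries.

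Rpl39 itself did not pass the test in any knockout. It stood at 391, 299.7 and 329 CPM in WT, at 283, 293 and 319.7 in Hmgn1-/-, at 261, 280.0 and 413 in Hmgn2-/- and at 253, 289.9 and 347 in the double knockout. In each knockout replicate 3 alone reached the WT range or, in Hmgn2-/-, passed it, and the other 2 libraries lay below every WT library. Its log2 fold change was -0.18 in Hmgn1-/- (95% interval -0.36 to -0.00, edgeR adjusted p = 0.122), -0.09 in Hmgn2-/- (edgeR adjusted p = 0.778) and -0.19 in the double knockout (edgeR adjusted p = 0.198). Per length, Rpl39l was at 3.59% ± 0.372 of the level of Rpl39 in WT, 1.68% ± 0.407 in Hmgn1-/-, 1.22% ± 0.0617 in Hmgn2-/- and 1.21% ± 0.118 in the double knockout (SD, n = 3 each). The paralog was thus a minor source of this protein's mRNA in WT, and a smaller one in each knockout, with no overlap between the WT libraries (lowest 3.31%) and the others (highest 2.14%).

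Rpl22l1 behaved in a milder way in Hmgn1-/-. Rpl22 and Rpl22l1 encode related proteins of the large subunit that also bind RNA outside the ribosome. Rpl22l1 stood at 148, 134 and 136 CPM in WT, at 114, 121 and 118 in Hmgn1-/-, at 117, 117.5 and 147 in Hmgn2-/- and at 117, 116 and 119 in the double knockout. All libraries of Hmgn1-/- and of the double knockout were below all WT libraries, whereas Hmgn2-/- replicate 3 lay among them. The gene fell by 0.24 in Hmgn1-/- (SE 0.059, -0.36 to -0.11), 1.18-fold lower in 3 of 3 libraries (edgeR's quasi-likelihood test under Benjamini-Hochberg adjustment, adjusted p = 0.00838). That call was lost without any single library, with an adjusted p in edgeR of 0.0166 without WT replicate 1, 0.0127 without WT replicate 2, 0.0207 without WT replicate 3, and 0.0403, 0.0232 and 0.0193 without Hmgn1-/- replicates 1, 2 and 3. A share of 50.8% of the sequence of Rpl22l1 is also found in another annotated gene. Rpl22 had a log2 fold change of 0.07, 0.15 and 0.03 in Hmgn1-/-, Hmgn2-/- and the double knockout (edgeR adjusted p = 0.473, 0.452 and 0.759, with no direction called), and Rpl22l1 stood per length at 25.1% ± 0.547 of Rpl22 in WT, 20.3% ± 1.26 in Hmgn1-/-, 21.0% ± 0.873 in Hmgn2-/- and 20.8% ± 1.18 in the double knockout.

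Rpl10l, an intronless paralog of the X-linked Rpl10 known for its role in male meiosis, was low in all knockouts. It lies on chromosome 12 (66283379 to 66284401), and none of its stretches of 100 bases is found in another annotated gene. It stood at 41.9, 42.5 and 38.7 CPM in WT, at 27.8, 35.6 and 34.5 in Hmgn1-/-, at 29.8, 34.4 and 30.7 in Hmgn2-/- and at 28.6, 30.7 and 31.5 in the double knockout. All 9 knockout libraries were below all WT libraries. Its log2 fold change in Hmgn1-/- was -0.33 (SE 0.094, -0.53 to -0.13, 3 of 3 libraries), which missed the threshold in edgeR (adjusted p = 0.0178) and passed it in DESeq2 (adjusted p = 0.00754). With the replicate number as a block in edgeR, Rpl10l was called as well, and the count of lower genes of the family in Hmgn1-/- was 3, with 1843 of all genes lower and 1553 higher, beside 1399 and 1013 without the block. Rpl10, the standard gene, had log2 fold changes of 0.05, 0.09 and 0.02 (edgeR adjusted p = 0.551, 0.650 and 0.822, with no direction called), and the paralog stood per length at 2.24% ± 0.0990 of Rpl10 in WT, 1.73% ± 0.152 in Hmgn1-/-, 1.66% ± 0.275 in Hmgn2-/- and 1.63% ± 0.0281 in the double knockout.

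**Figure D3:**
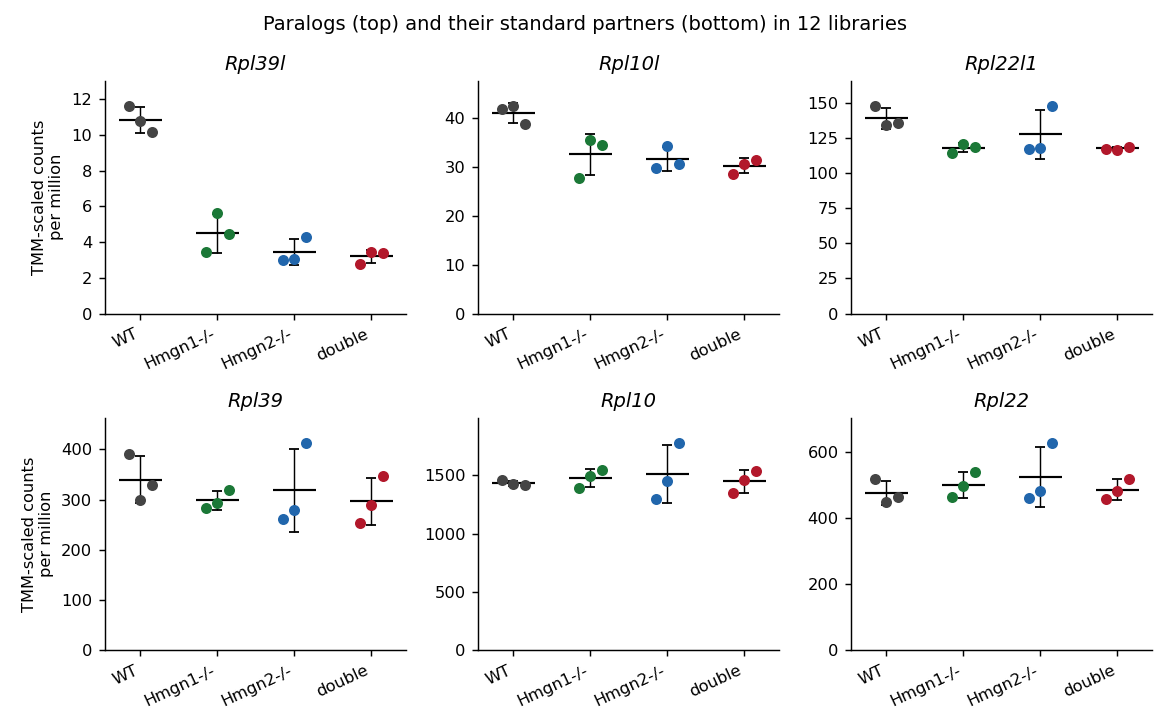
CPM scaled by TMM (vertical axis, from 0) in each of the 12 libraries for the paralogs Rpl39l, Rpl10l and Rpl22l1 (top) and their standard partners Rpl39, Rpl10 and Rpl22 (bottom), with lines for the mean and bars for the SD of 3 libraries. Rpl39l lies between 10.2 and 11.6 in WT and at or below 5.63 in every knockout library, while the libraries of Rpl39 overlap.

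The other 4 paralogs showed no change that passed the test in any knockout. Rpl7l1, a relative of Rpl7 with a part in ribosome assembly, had log2 fold changes of 0.03, 0.10 and 0.10 in Hmgn1-/-, Hmgn2-/- and the double knockout. Rpl3l had 0.20, 0.08 and 0.14, at very low counts, and Rps27l, a p53 target in many cells, had -0.15, -0.10 and -0.13. Rps4y2, the autosomal copy of the X-linked Rps4x, had -0.08, -0.04 and -0.17, and stood per length at 49.4% ± 3.00 of Rps4x in WT and 46.0% in the double knockout. By edgeR its adjusted p in the double knockout was 0.0254.

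Rpl13, a large subunit protein gene, was the member that rose in Hmgn1-/-. It stood at 2676, 2734 and 2710.0 CPM in WT, at 3023, 3347 and 3427 in Hmgn1-/-, at 2933, 3244 and 4065 in Hmgn2-/- and at 2902, 3175 and 3241 in the double knockout. Every knockout library was above every WT library, and Hmgn2-/- replicate 3 was the highest of all. In Hmgn1-/- the log2 fold change was 0.27 (SE 0.055, 0.16 to 0.39), 1.21-fold higher in 3 of 3 libraries (edgeR's quasi-likelihood test under Benjamini-Hochberg adjustment, adjusted p = 0.00199). The call was lost without WT replicate 3 (adjusted p = 0.0121 in edgeR) and without Hmgn1-/- replicate 2 (adjusted p = 0.0166 in edgeR). It was also lost in the fit of all 12 libraries (adjusted p = 0.0450 in edgeR). Without Hmgn1-/- replicate 1 2 genes of the family were called higher, Rpl13 among them, beside 638 of all 14043 genes tested. A share of 78.8% of the sequence of Rpl13 is also found in other annotated genes.

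Rpl13 lies on chromosome 8 (123102350 to 123105244), and the whole of this chromosome stood high in the knockouts. The median log2 fold change of its 747 genes tested was 0.26 in Hmgn1-/-, with 83.1% of them above 0. It was 0.28 over 749 genes in Hmgn2-/- and 0.25 over 754 genes in the double knockout. On each of the other 18 autosomes the median lay between -0.04 and 0.03 in Hmgn1-/-, between -0.03 and 0.04 in Hmgn2-/- and between -0.04 and 0.02 in the double knockout. On the X chromosome it was -0.14, -0.12 and -0.13. The Y chromosome, which holds none of the 84 genes, had 4 genes tested, all called lower in each knockout, with medians of -3.70, -3.25 and -2.94, and the cause was not tested.

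The shift was present in each of the 9 knockout libraries and in no WT library. Over 691 genes of chromosome 8, the median log2 level relative to the WT mean was -0.02, 0.01 and 0.01 in WT, 0.27, 0.25 and 0.25 in Hmgn1-/-, 0.27, 0.26 and 0.27 in Hmgn2-/- and 0.24, 0.26 and 0.26 in the double knockout. It ran along the whole chromosome, with medians from 0.23 to 0.32 in every knockout library in each of 4 stretches with like numbers of genes. The change of Rpl13 differed from the median of its chromosome by 0.01 in Hmgn1-/-, 0.07 in Hmgn2-/- and -0.05 in the double knockout.

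DNA copy number is not analysed here, and the part of the chromosome in the rise of Rpl13 was not tested. The 4 ribosomal protein genes of the X chromosome are Rpl10, Rpl39, Rps4x and Rpl36a. Rps4x, a small subunit gene, had log2 fold changes of -0.02, -0.01 and -0.07 and Rpl36a, a large subunit gene, of -0.03, -0.02 and -0.10 in Hmgn1-/-, Hmgn2-/- and the double knockout, none past the test. The median of the 4 was -0.02 in Hmgn1-/-, -0.02 in Hmgn2-/- and -0.08 in the double knockout.

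**Figure D4:**
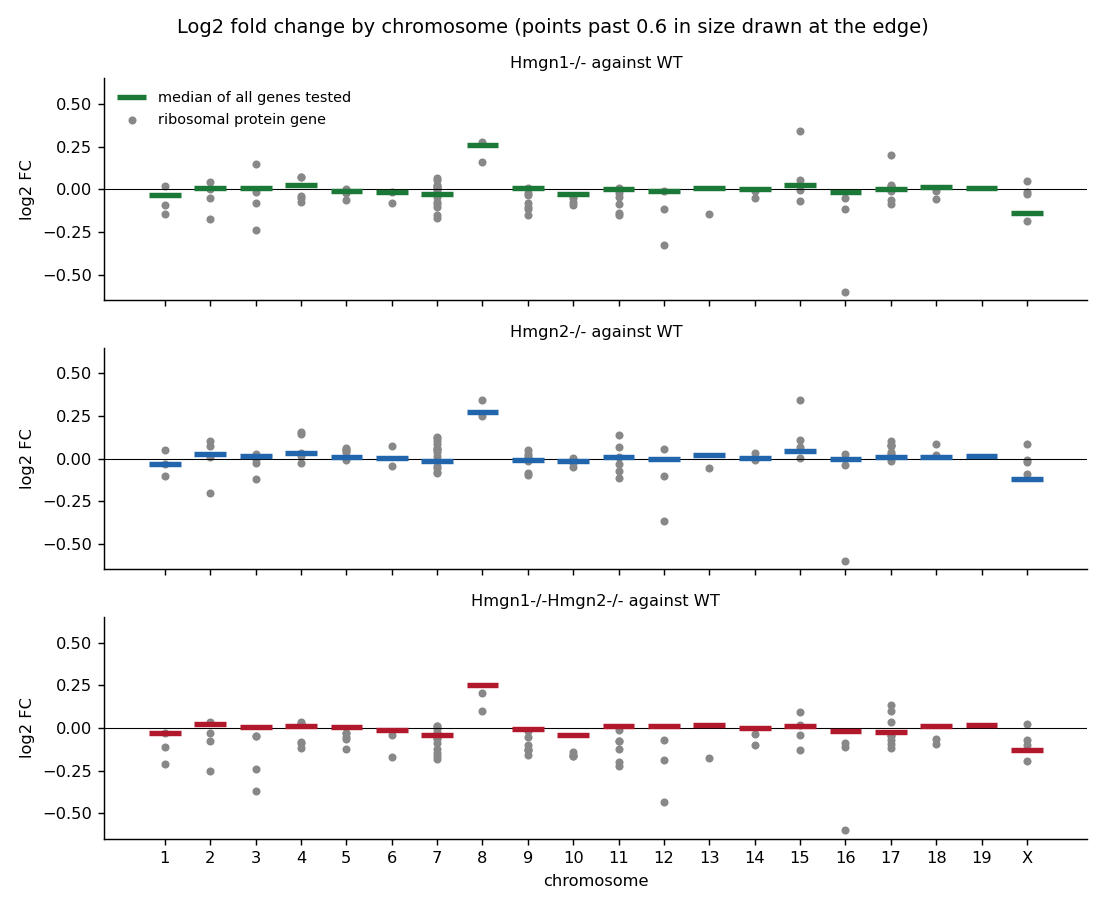
Log2 fold change against WT (vertical axis) by chromosome (horizontal axis) for Hmgn1-/-, Hmgn2-/- and the double knockout, with bars for the median of all genes tested and dots for the ribosomal protein genes; dots past 0.6 in size are drawn at the edge and the Y chromosome is not drawn. The bar of chromosome 8 stands at 0.26, 0.28 and 0.25.

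In cells without HMGN2, Rpl39l fell and no other gene of the family passed the threshold. Of 83 genes tested, 0 were called higher and 1 lower, which was also past the study's limits, by edgeR's quasi-likelihood test under Benjamini-Hochberg adjustment. Among all 14047 genes tested, 3.30% were called higher, 6.66% lower and 5.15% past the study's limits. At an unadjusted p under 0.05 edgeR had 4 of the 83, 2 higher, Rpl13 among them, and 2 lower (Rpl39l and Rpl10l), and DESeq2 called 2. Of all genes tested, 14.5% were higher and 16.6% lower at that unadjusted p, and DESeq2 called 13.9%. Rpl10l had a log2 fold change of -0.37 (SE 0.094, -0.57 to -0.16, below WT in 3 of 3 libraries, edgeR adjusted p = 0.0188, DESeq2 adjusted p = 0.00571). Rpl13 had 0.35 (SE 0.111, 0.10 to 0.59, above WT in 3 of 3 libraries, edgeR adjusted p = 0.0523).

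The standard genes in Hmgn2-/- centred on 0 with a wider error than in the other knockouts. Their log2 fold changes ran from -0.20 for Rps21, a small subunit protein gene, to 0.35 for Rpl13. The 95% interval lay within 0.5 of 0 for 71 of 76, and the median SE was 0.116, beside 0.059 in Hmgn1-/- and 0.062 in the double knockout. The median over 74 of these genes was 0.02 under TMM and RLE and 0.01 under upper-quartile scaling, and turned to -0.02 with library totals alone, so the family has no direction here. It also turned with single libraries, and was 0.12 without Hmgn2-/- replicate 1, 0.07 without replicate 2 and -0.11 without replicate 3. The calls moved with the same libraries. Without Hmgn2-/- replicate 1 Rpl13 was called higher, beside 421 of all 14317 genes tested. Without replicate 3 there were 3 genes lower, beside 1111 of all 14340 genes tested. Among the 3 were Rpl39l and the small subunit gene Rps25, named after its values were seen.

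In the double knockout most ribosomal protein genes stood slightly below WT, each by a small amount. Of 83 genes tested, 0 were called higher and 3 lower (Rpl39l, Rpl10l and Rpl22l1, all paralogs), with 1 past the study's limits, by edgeR's quasi-likelihood test under Benjamini-Hochberg adjustment. Among all 14128 genes tested, 7.79% were called higher, 10.2% lower and 6.30% past the study's limits. At an unadjusted p under 0.05 edgeR had 1 gene higher and 16 lower, and DESeq2 called 4 in all. Of all genes tested, 18.8% were higher and 20.1% lower at that unadjusted p and DESeq2 called 19.3%, so the 16 lower genes, 19.3% of the family, were at the background share. With the replicate number as a block, 1 gene of the family, Rpl13, was called higher. Of all genes, 1415 were higher and 1711 lower with the block, beside 1101 and 1443 without it. Without the block Rpl13 had a log2 fold change of 0.20 (SE 0.053, 0.09 to 0.32, above WT in 3 of 3 libraries, edgeR adjusted p = 0.0102), and it was called without double knockout replicate 1.

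The 3 genes that fell in the double knockout differed widely in size of change. Beside Rpl39l, Rpl10l fell by 0.44 (SE 0.077, -0.60 to -0.27), 1.35-fold lower in 3 of 3 libraries (edgeR's quasi-likelihood test under Benjamini-Hochberg adjustment, adjusted p = 0.000776). Rpl22l1 fell by 0.24 (SE 0.058, -0.37 to -0.11), 1.18-fold lower in 3 of 3 libraries (adjusted p = 0.00697 in edgeR). The call of Rpl22l1 was lost without any single library, with an adjusted p in edgeR of 0.0163, 0.0105 and 0.0176 without WT replicates 1, 2 and 3 and of 0.0206, 0.0375 and 0.0195 without double knockout replicates 1, 2 and 3. Without WT replicate 1, Rps4y2 was called lower instead, for 3 in all, beside 1767 of all 14295 genes tested.

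Among the standard genes the double knockout had 0 calls in edgeR, 13 at an unadjusted p under 0.05 (12 lower, 1 higher) and 1 call in DESeq2. The 12 lower genes were 15.8% of them, under the 20.1% of all genes tested. Their log2 fold changes ran from -0.37 for Rpl34, with few counts and an interval of -0.87 to 0.13, to 0.20 for Rpl13. The median was -0.07 over the 76 genes, beside 0.00 for all genes, and 11 of the 76 lay above 0. Over the 74 genes of the scaling check it was -0.08 under TMM, RLE and upper-quartile scaling and -0.09 with library totals alone. It stayed negative without each single library, between -0.13 and -0.01. The 95% interval lay within 0.5 of 0 for 72 of 76.

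**Figure D5:**
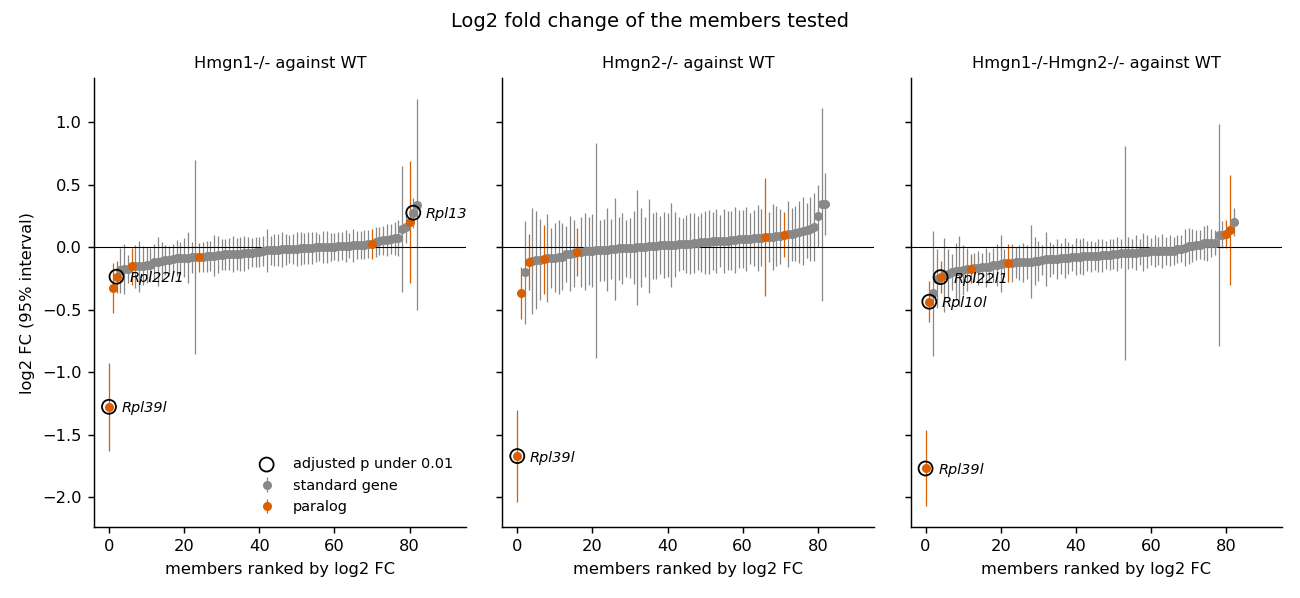
Log2 fold change against WT with its 95% interval (vertical axis) for the 83 genes tested, ranked by value (horizontal axis), in Hmgn1-/-, Hmgn2-/- and the double knockout; circles mark an adjusted p under 0.01 in edgeR. Rpl39l stands alone at the low end at -1.28, -1.67 and -1.77, and the medians are -0.03, 0.02 (-0.02 for the standard genes with library totals alone) and -0.08.

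By subunit, Rps26 and Rps12 of the small subunit were among the standard genes below WT that came nearest to the threshold in the double knockout. Rps26, which sits at the mRNA exit channel, had a log2 fold change of -0.17 and lay below WT in 3 of 3 libraries (edgeR's quasi-likelihood test under Benjamini-Hochberg adjustment, adjusted p = 0.0318), and Rps12 had -0.16 (below WT in 3 of 3 libraries, edgeR adjusted p = 0.0416); both miss 0.01. Of the 33 small subunit genes, 2 in Hmgn1-/-, 0 in Hmgn2-/- and 9 in the double knockout had an unadjusted p under 0.05 in edgeR, all of them lower. The 9 genes were 27.3% of the small subunit genes, beside 38.9% of all genes tested in either direction and 20.1% lower. In edgeR 0 of these genes were called in any knockout, and DESeq2 called 0 in each. The medians were -0.04, -0.01 and -0.07 for the standard small subunit genes and -0.02, 0.03 and -0.07 for the large subunit genes.

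Genes of known roles outside or inside the ribosome showed changes of this size too. Rpsa, also known as the laminin receptor, had log2 fold changes of -0.10, -0.02 and -0.13 in Hmgn1-/-, Hmgn2-/- and the double knockout, and Rps3, also a DNA repair protein, had -0.08, -0.01 and -0.06. Rps6, the target of S6 kinase, had -0.07, -0.03 and -0.12. Of the genes mutated in Diamond-Blackfan anaemia, Rps19 had -0.04, 0.02 and -0.09 and Rps24 had -0.05, -0.01 and -0.10. Rps14, lost in the 5q- syndrome, had -0.01, 0.08 and -0.07. None of these passed the test.

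The genes whose proteins bind MDM2 and so link the ribosome to p53 were likewise near 0. Rpl5 had -0.02, 0.04 and -0.05, Rpl11 had -0.05, 0.02 and -0.09, and Rpl23 had -0.09, -0.03 and -0.12. The ubiquitin fusion gene Rps27a had -0.04, 0.07 and -0.07. Of the genes of the factor-binding stalk, Rplp0 had 0.00, 0.07 and -0.03, Rplp1 had -0.08, 0.02 and -0.12, and Rplp2 had -0.09, -0.05 and -0.14. No gene of these groups passed the test.

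Large subunit genes of the active centre and the surface gave the same picture. Rpl3, near the peptidyl transferase centre, had 0.05, 0.11 and 0.02, and Rpl7 had 0.02, 0.05 and -0.03. Rpl10a, found on only some ribosomes of mESCs, had 0.02, 0.03 and -0.07, and Rpl41, the shortest ribosomal protein, had -0.05, 0.00 and -0.14. Rpl38, needed for the translation of Hox mRNAs in the mouse embryo, had -0.15 in Hmgn1-/- (95% interval -0.36 to 0.05), -0.11 in Hmgn2-/- (-0.54 to 0.31) and -0.22 in the double knockout (-0.51 to 0.07). None was called, and the intervals of Rpl38 are the widest of this group.

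The knockouts were also compared with one another, which uses no WT library. Of 83 genes tested, 0 were called in any of these 3 comparisons by edgeR's quasi-likelihood test under Benjamini-Hochberg adjustment, and DESeq2 called 0. Of all genes, 0.352% were called between Hmgn2-/- and Hmgn1-/-, 1.09% between the double knockout and Hmgn1-/-, and 0.0434% between the double knockout and Hmgn2-/-. At an unadjusted p under 0.05 edgeR had 0, 1 and 0 genes, beside 3.20%, 9.53% and 4.44% of all genes. The 1 gene was Rpl39l, at a log2 fold change of -0.49 in the double knockout against Hmgn1-/- (-0.90 to -0.08, edgeR adjusted p = 0.361). The replicate numbers paired the libraries in the first and the last of these comparisons. There the replicate block called 26 of all genes higher and 43 lower in Hmgn2-/- against Hmgn1-/-, beside 13 and 35 without it, and 60 and 17 in the double knockout against Hmgn2-/-, beside 5 and 1, with 0 of the family in each.

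Small shifts of the whole family between knockouts turned with single libraries. The median of the 83 genes was 0.06 in Hmgn2-/- against Hmgn1-/-, -0.04 in the double knockout against Hmgn1-/- and -0.10 in the double knockout against Hmgn2-/-, with 77, 8 and 2 genes above 0. For the standard genes the first turned to -0.09 and the last to 0.05 without Hmgn2-/- replicate 3. The middle value turned to 0.01 without Hmgn1-/- replicate 3 and to 0.01 without double knockout replicate 1. Rpl39l had -0.40 in Hmgn2-/- against Hmgn1-/- (-0.88 to 0.09) and -0.09 in the double knockout against Hmgn2-/- (-0.52 to 0.33).

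For Rpl39l, the fall in the double knockout was smaller than the sum of the falls in the single knockouts. In a fit of all 12 libraries, the departure of the double knockout from the sum of the single knockouts was 1.19 on the log2 scale (SE 0.260, edgeR's quasi-likelihood test under Benjamini-Hochberg adjustment, adjusted p = 0.00642, with all 9 knockout libraries below all WT libraries). Rpl39l was the 1 gene of 83 with a call, and over all genes tested 6.32% had one. The next in order of p was Rpl13, with a departure of -0.41 (edgeR adjusted p = 0.0538, with all 9 knockout libraries above all WT libraries). The double knockout was made from the Hmgn2-/- cells, so these lines are not independent of each other.

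Genes around the ribosome were read from lists, in the order Hmgn1-/-, Hmgn2-/- and double knockout, with calls by edgeR at an adjusted p under 0.01. For comparison with each list, 7.28%, 3.30% and 7.79% of all genes tested were called higher and 10.1%, 6.66% and 10.2% lower. The 4 cytosolic ribosomal protein genes outside the naming rule that are in the table (among them Gnb2l1, which encodes RACK1, Fau and Rpl36al) had 0 calls in every knockout and medians of 0.04, 0.08 and 0.00. Of 76 mitochondrial ribosomal protein genes, 2, 1 and 1 were higher and 0, 0 and 1 lower, with medians of 0.03, 0.08 and 0.02. Mrps31 was higher in all knockouts, by log2 fold changes of 0.42, 0.44 and 0.41, Mrpl34 rose by 0.26 in Hmgn1-/-, and Mrps24 fell by 0.38 in the double knockout.

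Ribosome biogenesis factors stayed near their WT level as a list and had a few calls, with higher ones at about the share of all genes. Of 52 tested, 3, 2 and 4 were higher, beside 7.28%, 3.30% and 7.79% of all genes tested, and 0 were lower in each knockout. The medians were 0.03, 0.05 and 0.03. Nob1, the nuclease that makes the end of 18S rRNA, rose by 0.37, 0.40 and 0.35, and Cirh1a (UTP4), a small subunit processome protein, by 0.34, 0.37 and 0.35. Heatr3, an importer of RPL5, rose by 0.24 in Hmgn1-/- and 0.31 in the double knockout, and Nip7 by 0.27 in the double knockout. Of the 15 RNA polymerase I genes, 0 were called in Hmgn1-/- or Hmgn2-/-, and in the double knockout Znrd1 rose by 0.30 and Taf1a fell by 0.37, with list medians of 0.02, 0.03 and 0.04.

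Many of these higher genes share the chromosome of Rpl13. Of the 8, 3 and 7 context genes called higher in Hmgn1-/-, Hmgn2-/- and the double knockout, 6, 3 and 5 lie on chromosome 8 (Mrps31, Mrpl34, Nob1, Cirh1a, Heatr3, Nip7 and Eif4ebp1 in 1 or more of the knockouts). Of all genes called higher, 26.8%, 27.6% and 24.8% lie there, beside 5.38%, 5.35% and 5.35% of the genes tested.

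Other genes with TOP mRNAs, such as those of elongation factors, had medians of -0.02, 0.02 and -0.05 over 16 genes, with 0 higher and 2, 1 and 1 lower. Vim, the intermediate filament gene, fell by 0.69, 0.43 and 0.35, and Pabpc1, the cytoplasmic poly-A binding protein gene, fell by 0.25 in Hmgn1-/-. The 8 host genes of small nucleolar RNAs had 0 calls and medians of 0.00, 0.04 and -0.02. Of the 17 mTOR and TOP mRNA regulators, 2 were higher in Hmgn1-/- (Tia1, a translational repressor of TOP mRNAs, by 0.40, and Eif4ebp1, the mTOR target that holds eIF4E, by 0.26) and 0 in the other knockouts, with medians of 0.11, 0.06 and 0.07. Of the 10 transcription factors known at ribosomal protein promoters, Myc rose by 0.36 in Hmgn1-/- and by 0.49 in the double knockout and no other was called, with list medians of -0.03, -0.02 and 0.02. Between the knockouts Vim alone of these lists was called, higher by 0.34 in the double knockout than in Hmgn1-/-. Protein levels, translation and rRNA are not analysed here.

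Markers of cell types were read beside the family, since the knockouts differ from WT in some of them. The 12 pluripotency genes summed to between 7429 and 8655 CPM in every library, with Pou5f1 the most abundant. Of them, 3, 1 and 2 were higher and 1, 1 and 1 lower, with Klf4 higher by 0.93, 0.69 and 0.74 and Nanog lower with log2 fold changes of -0.32, -0.50 and -0.45. The cells of all groups thus expressed the markers of the labelled cell type.

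Of the 10 primitive endoderm genes, 8, 8 and 10 were higher and 0 lower, with medians of 2.50, 2.82 and 3.84. They summed to 144, 186 and 189 CPM in WT, 479, 393 and 402 in Hmgn1-/-, 556, 500.1 and 358 in Hmgn2-/- and 1049, 1033 and 955 in the double knockout, with Lama1 the most abundant over the 12 libraries and Col4a1 in the double knockout. The sums of the double knockout were above those of every other library, and all knockout sums were above WT. The fall of Rpl39l was seen in the same libraries, and the part of these cells in it was not tested.

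The other marker lists had lower sums in the knockouts, although not every gene in them fell. The 7 trophoblast genes summed to 323, 371 and 504 CPM in WT and to between 80.4 and 152 in the knockouts, with 0 higher and 4, 3 and 4 lower, and Krt8 was the most abundant over the 12 libraries, with Tfap2c above it in the mean of Hmgn1-/-. The 6 genes of 2-cell-like cells summed to 21.0, 16.9 and 15.1 in WT, 1.15, 1.48 and 0.596 in Hmgn1-/-, 1.34, 0.908 and 1.07 in Hmgn2-/- and 6.30, 5.24 and 3.79 in the double knockout, with Zscan4c the most abundant over the 12 libraries and Zscan4d above it in the mean of the double knockout. Of them 5, 6 and 5 were lower and 0 higher. The 8 fibroblast genes, for feeder cells, summed to 27.7, 23.4 and 28.9 in WT and to between 9.99 and 13.7 in the knockouts, with 3 lower in each (Col1a1, Col1a2 and Thy1) and 0 higher. Thy1 was the most abundant over the 12 libraries, with Twist1 above it in the mean of each knockout, and Lum was at 0 in all 12 libraries. Within the trophoblast list the fall of the sum was mainly in Krt8 and Krt18. Hand1 and Eomes also stood lower, from means of 5.11 and 9.78 CPM in WT. In Hmgn1-/-, Hmgn2-/- and the double knockout Hand1 had 0.90, 1.33 and 1.17 and Eomes 6.17, 7.035 and 6.05. Krt8 had a mean of 214 CPM in WT and of 30.7, 52.1 and 48.5 in Hmgn1-/-, Hmgn2-/- and the double knockout. Tfap2c had 32.1 in WT and 32.5, 34.6 and 27.2 in the knockouts, and Cdx2 had 1.075 and 0.740, 1.045 and 1.04. The trophoblast, 2-cell-like and fibroblast sums, like Rpl39l and Rpl10l, were lower in every knockout library than in every WT library. Among the knockouts they did not run together. The double knockout had the lowest means of Rpl39l (3.20 CPM) and Rpl10l (30.3 CPM) but the highest 2-cell-like sums. Hmgn1-/- had the highest mean of Rpl39l among the knockouts (4.51 CPM) and the lowest trophoblast sums. The part of such cells in those values was not tested.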

How the data were processed

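RNA from 12 mESC libraries (3 for each of 4 genotypes) was sequenced after poly-A enrichment. Per the labels, the authors aligned reads to mm10 with STAR and used DESeq2. The counting program, the annotation, its version and the use of strand are not given in the sources used here. The deposited table holds raw counts per gene, with between 17337908 and 31448468 per library. Wilson intervals rest on these totals, and the intervals of fold changes on the spread between libraries.

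From these counts, edgeR 4.0.16 (R 4.3.3) was run on the 6 libraries of each comparison with TMM scaling, filterByExpr (minimum count 10, minimum total 15), the quasi-likelihood test and Benjamini-Hochberg adjustment over all genes tested. A call is an adjusted p under 0.01, and the study's limits add a log2 fold change of at least 1 in size. The steps were tested on simulated data. Alternatives were DESeq2 1.42.0, other scalings, no filter, a fit of all 12 libraries, the replicate number as a block, an adjusted p under 0.05 and leaving out each library.

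The departure from additivity was tested in a fit of all 12 libraries. All intervals are at 95%. Positions and sequences are from RefSeq (GRCm38.p6) and transcript lengths and overlaps from GENCODE vM21 (GRCm38), and shared sequence was read as stretches of 100 bases found in another gene's transcript.

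The members and lists were chosen with earlier results of these data known. Named genes are those past the study's limits in any comparison, the 4 largest rises and the 4 largest falls among the calls in each knockout, a list of genes with known roles, and the 3 highest and 3 lowest per length in WT. Rpl34, Rpl36a, Rpl4, Rpl13a, Rps2, Rps21 and Rps25 lie outside this rule and were named after their values were seen. The lists were other cytosolic and mitochondrial ribosomal protein genes, biogenesis factors, RNA polymerase I genes, other TOP mRNAs, small nucleolar RNA host genes, mTOR and TOP regulators, transcription factors, and markers of pluripotent, primitive endoderm, fibroblast, trophoblast and 2-cell-like cells.

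Replicate numbers come from the labels, which do not say what they share. Over 12556 genes, the deviations from the group means correlated between same-numbered libraries at 0.0673 to 0.544 (median 0.253, over 0.1 in 16 of 18 pairs), and between other libraries at -0.454 to 0.0837. Every pair was over 0.1 in Hmgn1-/- and the double knockout against WT, in Hmgn2-/- against Hmgn1-/- and in the double knockout against Hmgn2-/-, and there the numbers were taken to pair the libraries. The fits without the block are the reported ones, and in these comparisons blocked values stand beside the results they change. The study's design formula is not given in the sources used here.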

Additional observations from a re-analysis of the deposited data

Results flagged for a closer look

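Rpl39l had a difference between groups that the test of that difference called. The departure of the double knockout from the sum of the single knockouts was 1.19 on the log2 scale (SE 0.260, edgeR's quasi-likelihood test under Benjamini-Hochberg adjustment, adjusted p = 0.00642), with log2 fold changes, from the separate comparisons with WT, of -1.28, -1.67 and -1.77 in Hmgn1-/-, Hmgn2-/- and Hmgn1-/-Hmgn2-/- and 3 of 3 libraries below WT in each.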

How the results depend on the processing

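Across the processing settings tried, 212 values for the family were scored as unmoved and 28 as moved. A share was unmoved if it stayed within its SD, and a count if it stayed equal or changed little. A fall from 3 to 2 lower genes, as in the double knockout, was scored as unmoved, although a gene lost its call. For single genes, 95 values kept their call and 17 lost it while keeping their direction. None changed sign as a call. Rpl39l was called in 16 of 16 settings in each knockout (-1.47 to -1.10, -1.83 to -1.58 and -1.82 to -1.67), and Rpl10l in 16 of 16 in the double knockout. Rpl13 in Hmgn1-/- was called in 13 of 16, and Rpl22l1 in 9 of 16 in Hmgn1-/- and in the double knockout.

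In Hmgn1-/-, the fit of all 12 libraries called 0 higher and 1 lower (from 1 and 2), leaving out members with most of their sequence shared gave 0 and 1, and an adjusted p under 0.05 gave 4 lower. Of all 14323 genes, the fit of all 12 libraries called 865 higher and 1288 lower. In Hmgn2-/-, DESeq2, the fit of all 12 libraries and an adjusted p under 0.05 each called 2 lower (from 1). Of all genes, DESeq2 called 1210 lower and the fit of all 12 libraries 1314. In the double knockout, DESeq2, no filter, the replicate block and an adjusted p under 0.05 each called 1 higher (from 0). Of all genes, DESeq2 called 1218 higher, no filter 1354 and the replicate block 1415. In the same comparison an adjusted p under 0.05 called 8 lower (from 3). The fit of all 12 libraries called 2 lower, without Rpl22l1, beside 1348 of all 14323 genes. The share of all genes at an adjusted p under 0.05 is not given here, so the counts at that threshold have no background beside them. The cause of each move was not tested, beyond the looser threshold where one is named.

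Leaving out 1 library at a time, the counts ranged from 0 to 2 higher and 1 to 2 lower in Hmgn1-/-, 0 to 1 higher and 1 to 3 lower in Hmgn2-/-, and 0 to 1 higher and 2 to 3 lower in the double knockout. Over all genes tested the ranges were 596 to 1294 higher and 1008 to 1772 lower in Hmgn1-/-. They were 167 to 828 and 550 to 1111 in Hmgn2-/-, and 651 to 1262 and 1051 to 1767 in the double knockout. Rpl22l1 lost its call each time in Hmgn1-/- and the double knockout. The share of counts ranged over 8.58% to 8.87% in WT, 8.26% to 8.71% in Hmgn1-/-, 8.02% to 9.28% in Hmgn2-/- and 8.04% to 8.57% in the double knockout. Without Rpl4, Rps2 and Rpl13, the most abundant over the 12 libraries, it was 7.82% in WT, 7.53% in Hmgn1-/-, 7.77% in Hmgn2-/- and 7.35% in the double knockout.

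The settings on shared sequence, additivity, chromosomes and library deviations were chosen after seeing the data. For Hmgn2-/- against WT and the double knockout against Hmgn1-/-, not every same-numbered pair correlated over 0.1 (lowest 0.0801 and 0.0673), although, averaged over all other groups, each of the 12 libraries correlated best with its own number, a hint from the data. WT replicate 3 correlated slightly more with Hmgn2-/- replicate 2 (0.0837) than with Hmgn2-/- replicate 3. The replicate block called 1 gene, Rps26, in the double knockout against Hmgn1-/- (from 0), and 224 of all genes higher and 184 lower (from 91 and 59). Beyond Rpl10l in Hmgn1-/- and Rpl13 in the double knockout it changed no other call of the family. Low counts limit Rpl26, Rpl30, Rps27 and Rpl34, and Rpl3l among the paralogs.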
